A study of Homo sapiens with 9 samples.

Results

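The mRNAs of the nuclear-encoded subunits of the respiratory chain and ATP synthase were followed in Huh7 cells after knockdown of either IMP dehydrogenase. Members were chosen by a rule on gene names and a minimum count. A row of the count table was kept if its name began with NDUFA, NDUFB, NDUFC, NDUFS or NDUFV and a digit, with UQCR, with COX4 to COX8 or with ATP5, or was SDHA, SDHB, SDHC or SDHD. Names with a hyphen (5 rows) and names ending in P and digits (126 rows, mostly pseudogenes) were left out of the 218 rows that matched. Of the 87 names kept, 79 reached 10 or more counts in at least 3 of the 9 libraries, and these 79 are the members, of 58684 genes in the table. By name, 38 belong to complex I, 4 to complex II, 9 to complex III, 11 to complex IV and 17 to ATP synthase (complex V).

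Huh7 is an established human hepatocellular carcinoma line. All 9 libraries came from cells infected with a pLKO.1 lentivirus and selected with puromycin. The virus carried a control hairpin (shControl), a hairpin against IMPDH1 (shIMPDH1) or a hairpin against IMPDH2 (shIMPDH2), with 3 biological replicates each. The pools are stable infected populations, and how many hairpins were used per gene, and their sequences, were not given in the sources used here. How the replicate cultures were kept apart is not stated either, so a p-value here reflects the spread among these samples, which may be technical. IMPDH1 and IMPDH2 catalyse the rate-limiting step of guanine nucleotide synthesis, and the comparisons ask which mRNAs differ when either is knocked down. The labels name no batch or date.

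The respiratory chain passes electrons from NADH (complex I) or succinate (complex II) through ubiquinone, complex III and cytochrome c to oxygen at complex IV. Complexes I, III and IV pump protons across the inner mitochondrial membrane, and ATP synthase uses the return of those protons to make ATP. Complexes I, III and IV and ATP synthase each combine subunits encoded in the nucleus with a few encoded in mitochondrial DNA, whereas complex II is wholly nuclear. Hepatocytes are rich in mitochondria, and many hepatoma lines are grown in glucose-rich medium in which they also make ATP by glycolysis.

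Levels are in CPM, computed from library totals adjusted by TMM factors, and library values are given in the order of replicates 1, 2 and 3. The words rose, fell, higher, lower and called are used of a gene whose adjusted p was under 0.05 in edgeR's quasi-likelihood test (Benjamini-Hochberg, over the 17396 genes tested). Library totals ran from 44560837 to 58370328 counts, so 3 counts were worth 0.0519 to 0.0674 CPM. IMPDH1 mRNA was 62.9, 62.5 and 62.6 CPM in shControl, 25.3, 23.5 and 24.7 in shIMPDH1 and 66.4, 71.5 and 73.1 in shIMPDH2. IMPDH2 mRNA was 226, 227 and 229.6 CPM in shControl, 271, 274 and 277 in shIMPDH1 and 109, 109.9 and 109.7 in shIMPDH2. Each targeted mRNA was thus lowest in its own group, and the other paralogue was higher there than in shControl. All 11 hepatocyte markers examined exceeded 1 CPM in every library, and of 5 leukocyte and 4 endothelial markers only LYZ and PECAM1 did. Of 5 fibroblast markers, COL1A1, COL1A2 and PDGFRB did, and none of 4 muscle markers. KDR (endothelial) and DES (muscle) were at 0 throughout. The hepatocyte marker sum was 33920 to 35995 CPM in shControl, 39687 to 40938 in shIMPDH1 and 41812 to 42943 in shIMPDH2. The leukocyte sum, nearly all LYZ, was 885 to 934 CPM in shControl, 1308 to 1346 in shIMPDH1 and 859 to 899 in shIMPDH2, and the endothelial sum 12.3 to 13.5, 5.27 to 6.69 and 6.82 to 8.03. The fibroblast sum, mostly COL1A2, was 88.7 to 91.03 CPM in shControl, 94.8 to 97.9 in shIMPDH1 and 88.1 to 90.9 in shIMPDH2. The part of these shifts in the results below was not tested.

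All 79 members passed the filter on low counts. Of the 8 names that did not reach the minimum, 6 are tissue-restricted complex IV isoforms, COX4I2, COX6A2, COX6B2, COX7A1, COX7B2 and COX8C, none above 1 count in any library. The other 2 are ATP5J2LP, at 0 throughout, and ATP5L2, with at most 7 counts in a library. At these depths a count of 0 allows up to 3 counts, or 0.0519 to 0.0674 CPM, from counting error alone. The paired forms were all expressed: COX4I1 averaged 339 CPM per kb of transcript, COX7A2 259, COX6B1 179.9, COX8A 126, COX6A1 101 and COX7B 41.5. The expressed complex IV set was therefore the widely expressed isoform of each pair. The members closest to the minimum were NDUFA7, which reached 10 counts in 6 libraries, and NDUFA4L2, which reached it in all 9.

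Per kb of transcript, the most abundant members were ATP5B, the catalytic beta subunit of ATP synthase, at 572 CPM per kb, ATP5G3, a gene for the membrane c subunit, at 439.9, and COX4I1 at 339. The 3 genes for the c subunit, which encode the same mature protein behind different import sequences, were all expressed, with ATP5G3 at 439.9 CPM per kb, ATP5G2 at 221 and ATP5G1 at 174. NDUFA4L2, a paralogue of NDUFA4 known to be induced in low oxygen, averaged 0.543 CPM per kb against 69.2 for NDUFA4.

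Changes in the members were small. More members rose than fell in shIMPDH1, and more fell than rose in shIMPDH2. Against shControl, 25 of the 79 members rose and 8 fell in shIMPDH1, which is 41.8% called where 43.4% of all genes tested were called. The upward part, 31.6% of members, compares with 20.6% of all genes, and the downward part, 10.1%, with 22.8%. In shIMPDH2, 8 members rose and 23 fell, which is 39.2% called against 38.4% of all genes; 10.1% rose, against 18.6% of all genes, and 29.1% fell, against 19.9%. In the direct comparison of shIMPDH2 with shIMPDH1, 8 members were higher and 33 lower, 51.9% called against 44% of all genes; 10.1% were higher, against 21.7%, and 41.8% lower, against 22.2%. The shares called in either direction were thus near those of all genes in both comparisons with shControl, and the split between directions was not. Among the 11099 genes with a mean log2 CPM of 2 or more, 55.8%, 49.7% and 57.3% were called in the 3 comparisons. The members, nearly all at that level, were called less often in every comparison. Directions were not counted for those 11099 genes.

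The median member changed by a log2 fold change of 0.05 in shIMPDH1, -0.03 in shIMPDH2 and -0.07 between them, where the medians over all genes were 0.00, 0.01 and -0.01. No member changed by 2-fold in any comparison, whereas 527, 462 and 576 genes of the whole table did. Called members beyond a log2 fold change of 0.25 in size numbered 2, 2 and 4, or 2.53%, 2.53% and 5.06% of members against 21.8%, 17.5% and 22.5% of all genes. The common biological coefficient of variation was 0.0268, so differences of a few percent passed the test. In the 3 comparisons, 36, 36 and 42 of the 79 members had no overlap between the libraries of the groups compared. Of all genes tested, 51.7%, 46.7% and 51.5% had none, so a lack of overlap, given below for single genes, was common. The split in shIMPDH2 depended on the processing: scaling by library totals alone gave 15 higher and 17 lower, and leaving out replicate 2 of shControl gave 9 higher and 10 lower. In shIMPDH1, leaving out its replicate 1 left 29 higher and 3 lower.

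**Figure D1:**
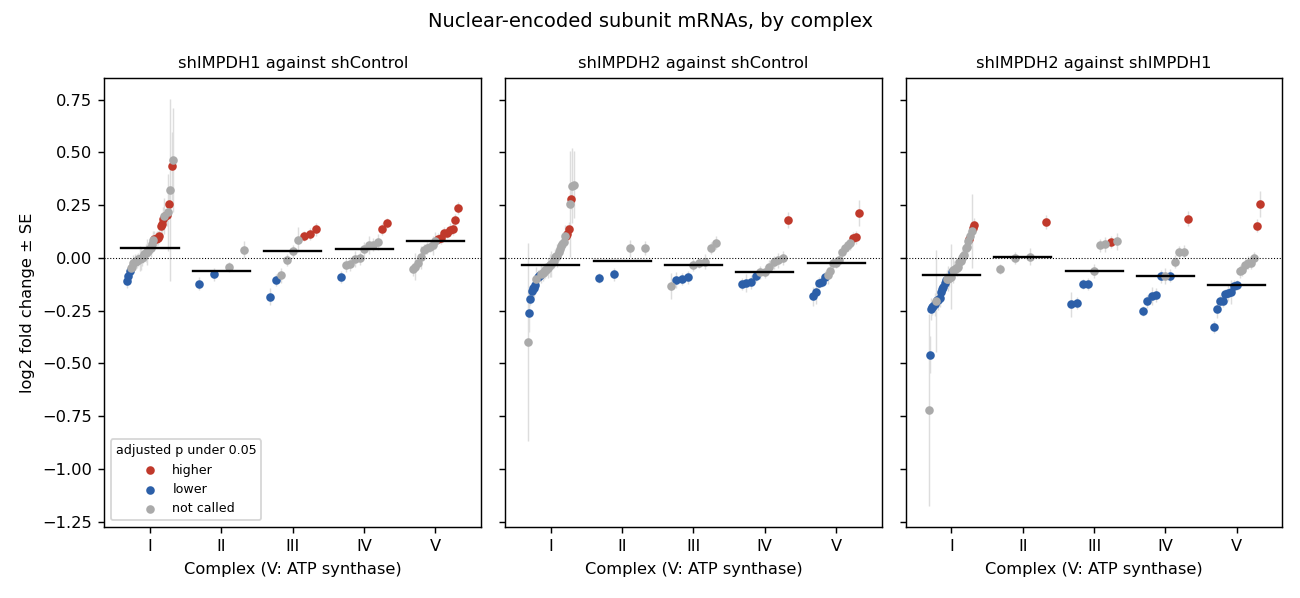
Log2 fold change of each of the 79 members with its standard error (grey bar), by complex, in the 3 comparisons; red points are called higher, blue lower and grey not called, and black lines are medians. The complex V points sit mostly above 0 in shIMPDH1 against shControl (median 0.08) and mostly below 0 in shIMPDH2 against shIMPDH1 (median -0.13).

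The mean log2 CPM of each complex, taken as a difference from the shControl mean, was also taken by library. The ATP synthase genes were at -0.03, 0.03 and 0.00 in shControl, 0.06, 0.07 and 0.09 in shIMPDH1, and -0.04, 0.01 and -0.01 in shIMPDH2. All 3 shIMPDH1 libraries were thus above all others for ATP synthase, while shControl and shIMPDH2 overlapped. The complex IV genes were at -0.01, 0.05 and 0.06 in shIMPDH1 and at -0.08, -0.01 and -0.04 in shIMPDH2, with shControl at -0.03 to 0.02. The complex I genes were at 0.06, 0.08 and 0.11 in shIMPDH1, above the -0.03 to 0.02 of shControl, and at -0.01, 0.03 and -0.05 in shIMPDH2. This mean weights each gene alike, and 4 complex I members under 2 CPM (NDUFA13, NDUFA4L2, NDUFA7 and NDUFV2) had log2 fold changes of 0.22 to 0.46 in shIMPDH1. As a share of library counts the complex I genes overlapped, at 0.236% to 0.241% in shControl and 0.237% to 0.246% in shIMPDH1. The complex II genes in shIMPDH1, at -0.09, -0.02 and -0.04, overlapped shControl. The complex III genes were at -0.04, -0.03 and -0.06 in shIMPDH2, all below the -0.02 to 0.01 of shControl. In shIMPDH1 the complex III genes, at -0.02, 0.01 and 0.03, overlapped shControl. The 79 members together took 0.844% to 0.852% of a library's counts in shControl, 0.861% to 0.884% in shIMPDH1 and 0.831% to 0.852% in shIMPDH2.

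**Figure D2:**
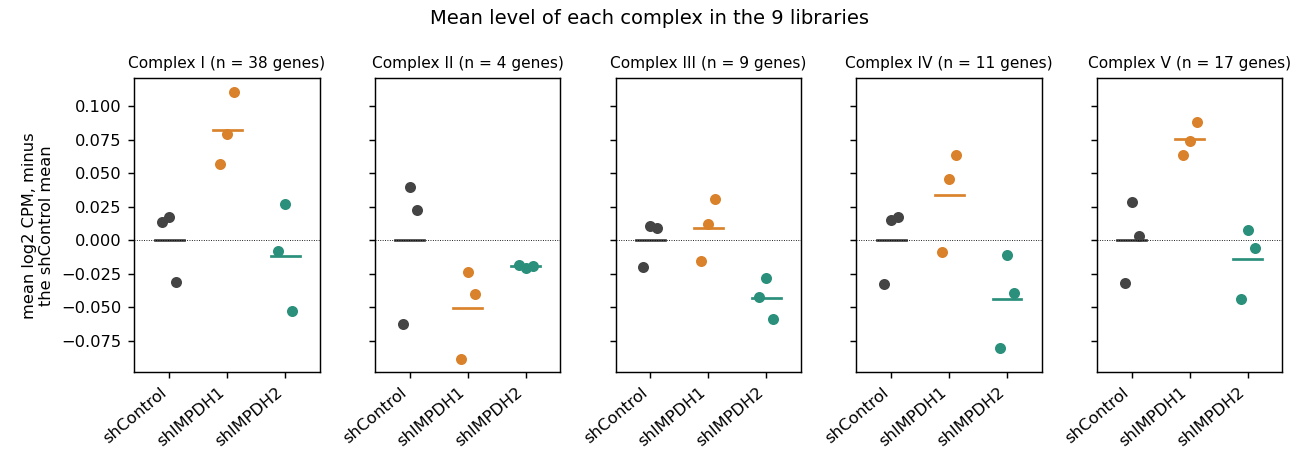
Mean log2 CPM of the members of each complex in each of the 9 libraries, minus the mean of the 3 shControl libraries; points are libraries and bars are group means. For complex V the shIMPDH1 libraries lie at 0.06 to 0.09, above every shControl and shIMPDH2 library.

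The subunit mRNAs of ATP synthase were called in 1 direction only in shIMPDH1 and in the direct comparison, and in both directions in shIMPDH2. Of the 17 genes named for it, 15 encode subunits; ATP5S and ATP5SL carry the older name but are now called DMAC2L and DMAC2 and are not subunits. In shIMPDH1, 8 of the 15 subunit mRNAs rose and none fell, while 14 of 15 had a positive log2 fold change. In shIMPDH2, 1 rose and 5 fell. Between the knockdowns, 9 of 15 were lower in shIMPDH2 and none was higher. Of the 17 genes, 47.1%, 47.1% and 64.7% were called in the 3 comparisons, against 43.4%, 38.4% and 44% of all genes. Over 18 alternative settings, including leaving out each library, shIMPDH1 gave 6 to 10 higher and 0 lower, and the direct comparison gave 0 higher and 8 to 11 lower. The count in shIMPDH2 moved to 4 higher and 4 lower with library totals alone.

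ATP5G1, one of the genes for the c subunit of the proton-driven rotor, changed most among the subunits in shIMPDH1 and in the direct comparison. It lies on chromosome 17 at 48892765 to 48895871 (plus strand, GRCh38). ATP5G1 was at 98.4, 104 and 103 CPM in shControl, 118, 118 and 123 in shIMPDH1, and 93.8, 97.1 and 95.4 in shIMPDH2. The 3 groups did not overlap, with shIMPDH1 highest and shIMPDH2 lowest. ATP5G1 was 17.7% higher in shIMPDH1 than in shControl (log2 fold change 0.24, SE 0.029, adjusted p = 2.23e-07). It was lower in shIMPDH2 than in shControl (-0.09, SE 0.030, adjusted p = 0.015) and than in shIMPDH1 (-0.33, SE 0.030, adjusted p = 5.67e-10). Leaving out replicate 2 of shControl (adjusted p = 0.134) or its replicate 3 ended the call of shIMPDH2 against shControl.

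The sister gene ATP5G2, on chromosome 12, did not follow ATP5G1. It was at 176, 190.5 and 187 CPM in shControl, 199.8, 201 and 200.1 in shIMPDH1, and 189, 204 and 198 in shIMPDH2. It rose in both knockdowns (log2 fold change 0.12, adjusted p = 0.00211, and 0.09, adjusted p = 0.0132), although the shIMPDH2 libraries overlapped shControl and leaving out replicate 1 of shControl or replicate 2 of shIMPDH2 ended that call (adjusted p up to 0.112). ATP5G3, the most abundant of the 3 per length, was not called in any comparison. Its log2 fold changes were 0.04, -0.02 and -0.06, with an SE of 0.027 each.

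The proximal promoters of ATP5G1 and ATP5A1 are printed because both mRNAs were higher in shIMPDH1 and lower in shIMPDH2. They are RefSeq sequence of GRCh38.p14, 5′ to 3′ on the gene's strand, limited to bases before the RefSeq start that lie in no UTR of the GENCODE 29 basic set. The gene spans given here also cover GENCODE transcripts outside the basic set. The spans of ATP5A1 and of COX4I1 begin farther upstream, so the bases printed for both lie inside them, as do the last 2 bases printed for NDUFS4. Capitals mark CCAAT boxes or GC boxes (GGGCGG or its reverse complement CCGCCC), the matches found in these bases among the motifs searched. The ATP5G1 bases span chr17:48892565-48892764 (plus strand) and the ATP5A1 bases chr18:46104234-46104331 (minus strand).
ATP5G1: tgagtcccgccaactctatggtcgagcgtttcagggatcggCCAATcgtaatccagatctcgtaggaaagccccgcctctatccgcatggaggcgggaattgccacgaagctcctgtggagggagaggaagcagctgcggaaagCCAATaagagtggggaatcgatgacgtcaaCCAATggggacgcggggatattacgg
ATP5A1: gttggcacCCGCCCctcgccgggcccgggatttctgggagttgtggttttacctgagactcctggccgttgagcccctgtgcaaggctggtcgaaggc

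In the catalytic head, ATP5A1 encodes the alpha subunit, ATP5B the beta subunit, ATP5C1 the gamma shaft, and ATP5D and ATP5E the small delta and epsilon subunits. ATP5A1 was at 519, 550.1 and 549 CPM in shControl, 561, 575 and 587 in shIMPDH1, and 487, 503 and 506 in shIMPDH2. Its groups did not overlap, and it was 6.42% higher in shIMPDH1 (log2 fold change 0.09, SE 0.026, adjusted p = 0.00703) and 7.51% lower in shIMPDH2 (-0.11, SE 0.026, adjusted p = 0.00123). The shIMPDH1 call was lost without shIMPDH1 replicate 3 (adjusted p = 0.0634).

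ATP5B was at 994, 1040.5 and 1040.5 CPM in shControl, 1097, 1117 and 1126 in shIMPDH1, and 998, 1022 and 1037 in shIMPDH2. Only the shIMPDH1 libraries stood apart: ATP5B rose there (log2 fold change 0.12, adjusted p = 0.000276) and had a log2 fold change of -0.01 in shIMPDH2 (adjusted p = 0.823). ATP5C1 also rose in shIMPDH1 (0.09, adjusted p = 0.00913), a call lost without shControl replicate 1 or shIMPDH1 replicate 3. ATP5D was at 71.2, 66.0 and 62.4 CPM in shControl, 69.3, 70.8 and 68.0 in shIMPDH1 and 53.7, 60.8 and 61.9 in shIMPDH2, where all 3 libraries were below the other 6. It fell in shIMPDH2 (log2 fold change -0.18, SE 0.045, adjusted p = 0.00205), as did ATP5E (-0.12, adjusted p = 0.000552). Between the knockdowns, 4 of the 5 head mRNAs were lower in shIMPDH2, ATP5C1 being the exception.

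In the peripheral stalk, which holds the head still, ATP5H (subunit d) was at 94.3, 96.1 and 97.3 CPM in shControl, 106, 111 and 109 in shIMPDH1, and 98.5, 101 and 98.0 in shIMPDH2. It rose in shIMPDH1 by 13.4% (log2 fold change 0.18, SE 0.028, adjusted p = 7.49e-06), with no overlap between groups. The small stalk subunit ATP5J rose there too (0.13, adjusted p = 0.000636), while ATP5F1 (subunit b) was not called in any comparison. ATP5O, the oligomycin-sensitivity subunit that joins stalk and head, was near its shControl level in shIMPDH1 (log2 fold change 0.00) and fell in shIMPDH2 (-0.16, SE 0.056, adjusted p = 0.0262), a call lost without any of 3 libraries (adjusted p up to 0.177) or with library totals alone (adjusted p = 0.0734). ATP5O shares 70.3% of its coding-transcript exon bases with another annotated gene on the same strand, so its count may not hold all of its reads. Of the membrane subunits, ATP5I rose in shIMPDH1 (0.14, adjusted p = 0.000935), ATP5J2 was lower in shIMPDH2 than in shIMPDH1 (-0.16, adjusted p = 0.00115) and ATP5L was not called.

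ATP5S and ATP5SL, the pair that are not subunits, moved the other way. ATP5S was at 11.98, 13.4 and 12.6 CPM in shControl, 13.5, 11.9 and 11.5 in shIMPDH1, and 14.5, 14.3 and 15.2 in shIMPDH2. All 3 shIMPDH2 libraries were above the other 6, and ATP5S rose there by 15.8% (log2 fold change 0.21, SE 0.062, adjusted p = 0.00758). ATP5SL rose by 7.04% (0.10, SE 0.030, adjusted p = 0.0115), a call lost without shIMPDH2 replicate 3 (adjusted p = 0.0538). Both were higher in shIMPDH2 than in shIMPDH1.

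**Figure D3:**
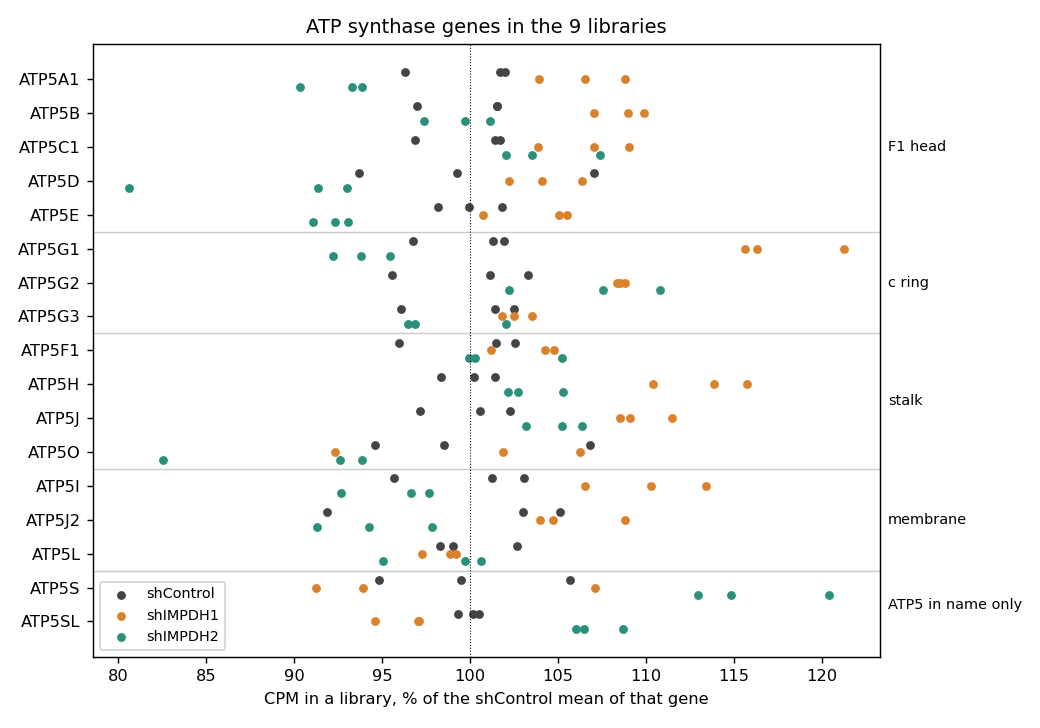
CPM of the 17 ATP synthase genes in each of the 9 libraries, as a percentage of that gene's shControl mean, grouped by the place of the subunit in the enzyme. The 3 shIMPDH1 points of ATP5G1 and ATP5H lie above all other libraries, and the 3 shIMPDH2 points lie above all others for ATP5S and ATP5SL alone.

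Complex IV, cytochrome c oxidase, reduces oxygen to water. Of its 11 nuclear members by name, 2 were higher and 1 lower in shIMPDH1, 1 higher and 4 lower in shIMPDH2, and 1 was higher and 6 lower in shIMPDH2 than in shIMPDH1. Called in the 3 comparisons were 27.3%, 45.5% and 63.6% of the 11, against 43.4%, 38.4% and 44% of all genes. Without shControl replicate 2 the count lower in shIMPDH2 was 2, and without shIMPDH1 replicate 1 that group had 4 higher and none lower. COX4I1, the largest nuclear-encoded subunit and a regulatory one, lies on chromosome 16 at 85798633 to 85807044 (plus strand, GRCh38). COX4I1 was at 237, 237 and 239.7 CPM in shControl, 261, 266 and 273 in shIMPDH1, and 221, 228 and 223 in shIMPDH2. The 3 groups did not overlap, with shIMPDH1 highest and shIMPDH2 lowest. COX4I1 rose by 12.03% in shIMPDH1 (log2 fold change 0.16, SE 0.025, adjusted p = 4.51e-06) and fell by 5.89% in shIMPDH2 (-0.09, SE 0.025, adjusted p = 0.00628). The direct difference was -0.25 (SE 0.025, adjusted p = 3.21e-09), and all 3 calls held under the 18 alternatives. The bases before its RefSeq start, chr16:85799609-85799682 (plus strand), chosen as above, are shown with a GC box in capitals. The longer window searched below also held an ETS motif (CCGGAAG) for COX4I1, not within the printed bases.
COX4I1: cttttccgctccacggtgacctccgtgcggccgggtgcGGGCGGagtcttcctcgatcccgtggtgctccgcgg

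COX6C, a small structural subunit, followed COX4I1 in shIMPDH1, at 93.0, 94.2 and 92.7 CPM in shControl and 101, 101 and 106 in shIMPDH1 (log2 fold change 0.14, SE 0.029, adjusted p = 0.000388). Its shIMPDH2 libraries were at 88.03, 91.7 and 87.1 CPM, all below shControl, but this difference was not called (-0.07, adjusted p = 0.0677). COX7B, another small subunit, went the opposite way in shIMPDH2. It was at 56.3, 58.9 and 58.9 CPM in shControl, 54.8, 59.4 and 59.2 in shIMPDH1, and 66.9, 67.1 and 63.2 in shIMPDH2. All 3 shIMPDH2 libraries were above the other 6, and COX7B rose there by 13.3% (0.18, SE 0.036, adjusted p = 0.000227), the only complex IV member to do so.

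The remaining complex IV calls were modest. COX7C fell in shIMPDH2 (log2 fold change -0.12, SE 0.030, adjusted p = 0.00144), as did COX5B, a zinc-binding subunit (-0.11, SE 0.033, adjusted p = 0.00619), whose call was lost without shControl replicate 2 (adjusted p = 0.0537). COX8A fell there as well (-0.12, adjusted p = 0.0284), a call lost without any of 3 libraries (adjusted p up to 0.304) or with library totals alone (adjusted p = 0.0681). COX7A2 fell in shIMPDH1 (-0.09, adjusted p = 0.00901), a call lost without shIMPDH1 replicate 1 (adjusted p = 0.0878). COX7A2L, which links complexes III and IV into supercomplexes, was not called in any comparison, with log2 fold changes of 0.00, -0.02 and -0.02 (SE 0.032 each).

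NDUFA4 is named as a complex I subunit but is found with complex IV. It was at 150.0, 153 and 155 CPM in shControl, 151, 155 and 162 in shIMPDH1, and 132, 137 and 131 in shIMPDH2. All 3 shIMPDH2 libraries were below the other 6. NDUFA4 fell by 12.6% in shIMPDH2 (log2 fold change -0.19, SE 0.029, adjusted p = 4.11e-06) and had a log2 fold change of 0.03 in shIMPDH1. With NDUFA4 placed in complex IV, 5 of 12 members fell and 1 rose in shIMPDH2. NDUFA4L2, at 0.473 to 0.816 CPM over the 9 libraries, was not called.

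Complex III passes electrons from ubiquinol to cytochrome c. Of its 9 members by name, 3 were higher and 2 lower in shIMPDH1, 3 lower and none higher in shIMPDH2, and 1 was higher and 4 lower in the direct comparison. The shares called were 55.6%, 33.3% and 55.6%, against 43.4%, 38.4% and 44% of all genes. The count lower in shIMPDH2 was 1 without shControl replicate 2, shControl replicate 3 or shIMPDH2 replicate 3, and with library totals alone. The direct count was 3 higher and 4 lower with library totals alone, and it had none higher without shIMPDH1 replicate 1, shIMPDH2 replicate 2 or shIMPDH2 replicate 3, with upper-quartile scaling or with pseudogene counts added. UQCRH, the acidic hinge subunit that faces cytochrome c1, was at 132, 137 and 132 CPM in shControl, 142, 141 and 149.9 in shIMPDH1, and 124, 129 and 120.0 in shIMPDH2. The 3 groups did not overlap. UQCRH rose by 8.16% in shIMPDH1 (log2 fold change 0.11, SE 0.030, adjusted p = 0.00321) and was lower in shIMPDH2 (-0.10, SE 0.030, adjusted p = 0.00977), the second call being lost without shControl replicate 2 or shIMPDH2 replicate 3 (adjusted p up to 0.104). UQCRHL, an intronless gene with a sequence close to that of UQCRH, was at 11.2 to 13.6 CPM. Reads from UQCRH and UQCRHL may have been split between the rows, so the UQCRHL values are uncertain.

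UQCRC1 and UQCRC2, the core proteins of complex III, were both lower in shIMPDH2 than in shIMPDH1 (-0.13, SE 0.024, adjusted p = 0.000108, and -0.12, SE 0.030, adjusted p = 0.00124). UQCRC1 was at 211, 212 and 213 CPM in shControl, 228, 223 and 230.4 in shIMPDH1, and 205, 210.3 and 209.6 in shIMPDH2. Every shIMPDH1 library was above the other 6, and UQCRC1 rose there (log2 fold change 0.10, SE 0.024, adjusted p = 0.00111). Its log2 fold change in shIMPDH2 was -0.02 (adjusted p = 0.476). UQCRC2 had a log2 fold change of 0.03 in shIMPDH1 (adjusted p = 0.43) and fell in shIMPDH2 (-0.09, SE 0.030, adjusted p = 0.0148), a call lost without shControl replicate 3 or shIMPDH2 replicate 3 (adjusted p up to 0.131) and with library totals alone (adjusted p = 0.052). UQCRFS1, the Rieske iron-sulfur protein, was at 110.3, 111 and 111 CPM in shControl and 103, 104 and 102 in shIMPDH1, and it fell there (-0.11, SE 0.028, adjusted p = 0.00294). UQCRB, a ubiquinone-binding subunit, rose in shIMPDH1 (0.13, SE 0.032, adjusted p = 0.00104). UQCR11, a small membrane subunit, was at 35.1, 34.5 and 36.0 CPM in shControl, 29.96, 32.1 and 30.7 in shIMPDH1, and 32.8, 31.8 and 33.5 in shIMPDH2. Both knockdowns lay below shControl; the fall was -0.18 (SE 0.040, adjusted p = 0.000411) in shIMPDH1 and -0.11 (SE 0.039, adjusted p = 0.0358) in shIMPDH2, the latter lost without any of 5 libraries (adjusted p up to 0.148) and, with all libraries, under DESeq2 (0.0801), library totals alone (0.0872) or no filter on low counts (0.0575).

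Complex I oxidises NADH. Its 38 members by name gave 12 higher and 3 lower in shIMPDH1, 4 higher and 9 lower in shIMPDH2, and 3 higher and 14 lower in the direct comparison. Of the 38, 39.5%, 34.2% and 44.7% were called in the 3 comparisons, against 43.4%, 38.4% and 44% of all genes. In shIMPDH1 the count higher was 7 without shIMPDH1 replicate 2 or 3, and the count lower was 0 without shIMPDH1 replicate 1 and 1 without shControl replicate 2, shControl replicate 3 or shIMPDH1 replicate 2 and with upper-quartile scaling. In shIMPDH2 the count lower was 3 without shControl replicate 2 and 5 without shIMPDH2 replicate 1, and the count higher was 7 with library totals alone. The 7 core subunits carry the flavin and iron-sulfur centres or form the quinone site, and 29 members are accessory subunits. In shIMPDH1, 1 core mRNA rose and 3 fell, whereas 11 accessory mRNAs rose and none fell. In shIMPDH2, 4 core mRNAs fell and none rose, and among accessory mRNAs 4 rose and 4 fell. The 3 lower in shIMPDH1 were thus all core subunits, none of them called lower without shIMPDH1 replicate 1. Whether core and accessory counts differ was not tested.

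NDUFS3 was the core mRNA that rose in shIMPDH1. It was at 53.0, 56.3 and 55.4 CPM in shControl, 57.0, 59.5 and 60.6 in shIMPDH1, and 48.3, 52.0 and 50.3 in shIMPDH2. The 3 groups did not overlap, and the direct difference was -0.24 on the log2 scale (SE 0.036, adjusted p = 5.53e-06). Against shControl the changes were 0.10 (adjusted p = 0.0197) and -0.13 (adjusted p = 0.00539), the first lost without shControl replicate 1, shIMPDH1 replicate 2 or shIMPDH1 replicate 3, and the second without shControl replicate 2 (adjusted p up to 0.113 and 0.0632). NDUFS1, the largest core subunit, was at 189, 199 and 205 CPM in shControl, 179.8, 191 and 187 in shIMPDH1, and 209, 201 and 205 in shIMPDH2. It was higher in shIMPDH2 than in shIMPDH1 (0.14, SE 0.030, adjusted p = 0.000318), and its fall in shIMPDH1 (-0.09, adjusted p = 0.0201) was lost without any of 3 libraries (adjusted p up to 0.15) or with upper-quartile scaling (adjusted p = 0.0538).

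NDUFS7, which carries an iron-sulfur centre next to the quinone site, was called lower in both knockdowns by small margins. The NDUFS7 changes were -0.11 (adjusted p = 0.0189) in shIMPDH1 and -0.09 (adjusted p = 0.0474) in shIMPDH2, lost without any of 3 and of 7 libraries (adjusted p up to 0.103 and 0.208). With all libraries kept, the NDUFS7 call in shIMPDH2 was also lost under DESeq2 (adjusted p = 0.0908), library totals alone (0.142), RLE size factors (0.0582), no filter on low counts (0.052) and a fit of the 2 groups alone (0.0573). NDUFV1, the flavin-binding subunit, fell in shIMPDH2 (-0.08, SE 0.026, adjusted p = 0.0108), a call that ended on leaving out replicate 2 of shControl or replicate 3 of shIMPDH2 (adjusted p up to 0.0685). NDUFS8 was not called in any comparison.

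Among the accessory subunits, NDUFS4, whose loss causes complex I deficiency, rose in both knockdowns. It lies on chromosome 5 at 53560633 to 53683340 (plus strand, GRCh38). NDUFS4 was at 17.1, 17.7 and 18.6 CPM in shControl, 19.9, 21.5 and 19.9 in shIMPDH1, and 21.6, 22.3 and 20.9 in shIMPDH2. All 6 knockdown libraries were above shControl. The rise was 14.9% in shIMPDH1 (log2 fold change 0.20, SE 0.050, adjusted p = 0.00183) and 21.4% in shIMPDH2 (0.28, SE 0.050, adjusted p = 5.43e-05), and both calls held under the 18 alternatives. Its proximal promoter bases, chr5:53560435-53560634 (plus strand), are shown because it differs from the other printed genes in direction. No searched motif falls within the printed bases, so none is in capitals. The longer window searched below, which runs past the RefSeq start, did hold a YY1 motif (AAGATGGC) for NDUFS4, not within the printed bases.
NDUFS4: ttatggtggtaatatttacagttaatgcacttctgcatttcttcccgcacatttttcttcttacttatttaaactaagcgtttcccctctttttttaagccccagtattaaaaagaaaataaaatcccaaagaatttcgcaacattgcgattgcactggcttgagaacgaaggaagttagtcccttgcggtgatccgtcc

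NDUFB1, a small subunit of the membrane arm, had the largest rise in shIMPDH1 among complex I members of at least 4 CPM. It was at 24.6, 24.7 and 24.6 CPM in shControl, 29.2, 29.7 and 29.2 in shIMPDH1, and 25.1, 27.3 and 21.98 in shIMPDH2. Only shIMPDH1 stood apart, 19.3% above shControl (log2 fold change 0.25, SE 0.053, adjusted p = 0.00026). NDUFB5, another membrane-arm subunit, was at 57.3, 59.3 and 57.4 CPM in shControl, 54.95, 58.8 and 58.3 in shIMPDH1, and 62.4, 65.4 and 63.8 in shIMPDH2, where it rose (0.14, SE 0.034, adjusted p = 0.00165). NDUFB8, at 6.55, 6.31 and 6.51 CPM in shControl, 6.99, 7.67 and 7.55 in shIMPDH1 and 4.75, 6.33 and 5.14 in shIMPDH2, showed the largest called difference between the knockdowns (-0.46, SE 0.089, adjusted p = 0.00011). Its fall against shControl in shIMPDH2 (-0.26, adjusted p = 0.0229) was lost without any of 4 libraries (adjusted p up to 0.16) or under DESeq2 (0.0513), and NDUFB8 shares 65.4% of its coding-transcript exon bases with another gene on the same strand.

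Complex II, succinate dehydrogenase, links the citric acid cycle to the chain. None of its 4 mRNAs rose against shControl, and 2 fell in each knockdown. That is 50% called in each, against 43.4% and 38.4% of all genes, from only 4 genes. SDHB, the iron-sulfur subunit, was at 95.7, 101 and 102 CPM in shControl, 86.7, 92.8 and 94.4 in shIMPDH1, and 104, 102 and 103 in shIMPDH2. All 3 shIMPDH1 libraries were below the other 6, and SDHB fell there by 8.11% (log2 fold change -0.12, SE 0.032, adjusted p = 0.00314) and was higher in shIMPDH2 than in shIMPDH1 (0.17, SE 0.032, adjusted p = 0.000104). SDHA, the flavoprotein, was at 167, 168 and 168 CPM in shControl, 160.2, 164 and 163 in shIMPDH1, and 157, 156 and 157 in shIMPDH2. It fell in shIMPDH2 (-0.10, SE 0.024, adjusted p = 0.00219). SDHC, a membrane anchor, was called lower in both (-0.08, adjusted p = 0.0365, and -0.08, adjusted p = 0.0396), calls lost without any of 4 and of 5 libraries (adjusted p up to 0.221 and 0.352). With all libraries kept, the SDHC call in shIMPDH1 was lost with upper-quartile scaling (adjusted p = 0.0941), and that in shIMPDH2 under DESeq2 (0.0652), library totals alone (0.0998), RLE size factors (0.0539) and a fit of the 2 groups alone (0.0576). SDHD, the other anchor, was not called.

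By pattern over both knockdowns, 5 members were higher in shIMPDH1 and lower in shIMPDH2 than in shControl: NDUFS3, UQCRH, COX4I1, ATP5A1 and ATP5G1, from 4 complexes. They are 6.33% of the members, where 2.33% of all genes tested had this pattern. No member had the reverse pattern, which 3.32% of all genes had. Of the 5, only COX4I1 kept both calls under every alternative. Without shControl replicate 2, the shIMPDH2 calls of NDUFS3, UQCRH and ATP5G1 were lost. Without shIMPDH1 replicate 3, the shIMPDH1 calls of NDUFS3 and ATP5A1 were lost. The pattern was not recounted for all genes under the alternatives, so its excess among members rests on the main setting. A further 2 members, NDUFS4 and ATP5G2, were higher in both (2.53%, against 8.11% of all genes), and 4, among them NDUFS7, SDHC and UQCR11, were lower in both (5.06%, against 9.76%). Called in neither knockdown were 26 members (32.9%, against 41.7%). The 2 comparisons with shControl share their control libraries, so a control library that is high or low moves both.

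Promoter windows, from 250 bases before to 50 bases after the RefSeq start, were matched for 65 of the 79 members and 27305 genes, and searched on both strands. The 27305 genes were not limited to expressed or coding genes, and the shares among such genes were not counted. The YY1 motif AAGATGGC was in 11 member windows (16.9%) and in 3.01% of all windows. The NRF1 motif, GCGC and TGCGC with any base between them, was in 15 (23.1%, against 6.29%), and the ETS motif CCGGAAG, which GABPA binds, in 19 (29.2%, against 10.6%). The GC box GGGCGG was in 37 (56.9%, against 44.5%) and the CCAAT box in 21 (32.3%, against 35.7%). No NRF1 match fell in the 10 complex IV windows and 6 fell in the 33 complex I windows. The ETS letters end in AAG, with which the YY1 letters begin, although in none of the 65 windows did the same bases hold both; a match is a description of sequence, not a bound site.

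The 13 mRNAs encoded in mitochondrial DNA belong to the same complexes. In shIMPDH2, 11 of the 13 fell and 1 rose, with a median log2 fold change of -0.26, beside -0.03 for the nuclear members. In shIMPDH1, 1 rose and none fell, with a median of 0.00. Between the knockdowns 9 were lower in shIMPDH2 and none higher. Of all genes tested, 18.6% rose and 19.9% fell in shIMPDH2, and 20.6% rose and 22.8% fell in shIMPDH1. In the direct comparison 21.7% were higher and 22.2% lower. MT-ND4, a proton-pumping subunit of complex I, was at 8204, 10298 and 10839 CPM in shControl, 9742, 10173 and 9837 in shIMPDH1, and 6992, 7358 and 7236 in shIMPDH2. All 3 shIMPDH2 libraries were below the other 6, 26.4% under shControl (-0.44, SE 0.054, adjusted p = 2.1e-07). MT-ND3 fell by 28.2% (-0.48, SE 0.041, adjusted p = 3.4e-10). MT-ND6, encoded on the opposite strand to the others, rose in both knockdowns (0.32 each, adjusted p = 0.0088 and 0.0092), calls not made under DESeq2, with which no mitochondrial mRNA was higher in either. In shIMPDH2 it was also lost without shControl replicate 2 or shIMPDH2 replicate 1. The libraries were made from polyadenylated RNA, so MT-ND6 RNA without a poly(A) tail may not be in these counts. MT-CO2 was not called in any comparison.

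The shControl libraries were uneven in these mRNAs. As a mean log2 difference from the shControl mean, the 13 mitochondrial mRNAs were at -0.19, 0.05 and 0.13 in shControl, 0.00, 0.04 and 0.03 in shIMPDH1, and -0.20, -0.23 and -0.26 in shIMPDH2. Replicate 1 of shControl was thus near the shIMPDH2 level. Without it, shIMPDH1 had 1 mitochondrial mRNA higher and 8 lower and shIMPDH2 1 higher and 12 lower; without shControl replicate 3, shIMPDH1 had 5 higher and none lower. The nuclear members differed far less over the shControl libraries, at -0.01, 0.02 and -0.01. The mitochondrial share of counts was 4.55%, 5.35% and 5.54% in shControl, 5.09% to 5.25% in shIMPDH1 and 4.4% to 4.51% in shIMPDH2. Fewer mitochondrial transcripts in every cell and fewer in only some cells cannot be told apart in bulk RNA. Because the libraries were made from polyadenylated RNA, a change in level and a change in polyadenylation cannot be told apart either.

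**Figure D4:**
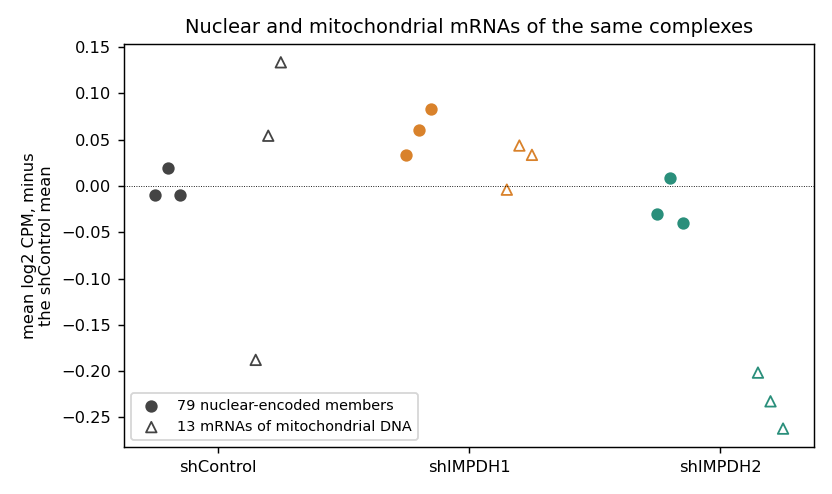
Mean log2 CPM of the 79 nuclear-encoded members (filled circles) and of the 13 mRNAs of mitochondrial DNA (open triangles) in each library, minus the shControl mean. The shIMPDH2 triangles lie at -0.20 to -0.26, while the shIMPDH2 circles lie at -0.04 to 0.01.

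Genes that the name rule leaves out were counted by list. Over all genes tested, 20.6% were higher and 22.8% lower in shIMPDH1, and 18.6% higher and 19.9% lower in shIMPDH2. Between the knockdowns, 21.7% were higher and 22.2% lower. Whether any list departs from these shares was not tested. Of 6 further subunits and carriers, 4 rose in shIMPDH1 and none fell, and 2 rose in shIMPDH2. CYC1, cytochrome c1 of complex III, was at 148, 149.8 and 149 CPM in shControl, 170.2, 175 and 179.9 in shIMPDH1, and 142, 157 and 159 in shIMPDH2. It was 17.4% higher in shIMPDH1 alone (log2 fold change 0.23, SE 0.032, adjusted p = 1.5e-06). ATPIF1, the inhibitor of ATP synthase hydrolysis, rose in both (0.21, adjusted p = 3.6e-06, and 0.14, adjusted p = 0.001).

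Of 16 complex I assembly genes, 7 rose in shIMPDH1 and 4 in shIMPDH2, and none fell in either. Over all genes, 20.6% and 18.6% rose, and 22.8% and 19.9% fell. Between the knockdowns, 2 were higher and 5 lower in shIMPDH2. TMEM70, which helps build both complex I and ATP synthase, rose in both (0.24, adjusted p = 4.8e-06, and 0.17, adjusted p = 0.00049), as did NUBPL, an iron-sulfur carrier for complex I (0.12, adjusted p = 0.0035, and 0.24, adjusted p = 6.5e-07). Of 23 complex IV assembly genes, 5 rose and 4 fell in each knockdown. COX14 was at 14.02, 13.6 and 14.4 CPM in shControl, 10.6, 10.8 and 11.97 in shIMPDH1, and 15.6, 16.9 and 16.8 in shIMPDH2, and was the most different between the knockdowns in that list (0.56, SE 0.059, adjusted p = 1e-08). SCO1, a copper chaperone, fell in both (-0.19, adjusted p = 1.3e-06, and -0.11, adjusted p = 0.0018).

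For complex III, 2 of 6 assembly genes were higher and 2 lower in shIMPDH1, and 1 was higher and 2 lower in shIMPDH2. TTC19, needed for Rieske protein turnover in complex III, fell by 30.03% in shIMPDH2 (-0.52, SE 0.036, adjusted p = 7.2e-12), a larger change than in any called member. Of 4 complex II assembly genes none was called in shIMPDH1 and 1, SDHAF2, rose in shIMPDH2 (0.24, adjusted p = 0.0039). Of 3 ATP synthase assembly genes, ATPAF1 rose in shIMPDH1 (0.15, adjusted p = 0.0018) and ATPAF2 fell in shIMPDH2 (-0.18, adjusted p = 0.019).

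Among 13 regulators of respiratory genes, 4 were higher and 3 lower in shIMPDH1, 2 higher and 4 lower in shIMPDH2, and 3 were higher and 7 lower in the direct comparison. Of all genes tested, 20.6% were higher and 22.8% lower in shIMPDH1, 18.6% and 19.9% in shIMPDH2, and 21.7% and 22.2% in the direct comparison. PPARGC1A, the coactivator PGC-1alpha, was at 4.35, 4.5 and 4.13 CPM in shControl, 6.23, 6.4 and 6.36 in shIMPDH1, and 3.92, 3.34 and 3.37 in shIMPDH2. The 3 groups did not overlap, and PPARGC1A was 46.1% higher in shIMPDH1 (0.55, SE 0.088, adjusted p = 1e-05) and 18.0% lower in shIMPDH2 (-0.29, SE 0.095, adjusted p = 0.018). GABPB1, a subunit of the GABP factor that binds ETS motifs, rose in both (0.37, adjusted p = 7.2e-09, and 0.14, adjusted p = 0.0036). ESRRA, an orphan nuclear receptor that acts with PGC-1alpha, fell in shIMPDH1 (-0.20, adjusted p = 0.00044) and rose in shIMPDH2 (0.18, adjusted p = 0.0015). Of 18 tested genes for import, pores, chaperones and carriers taken as a list of mitochondrial content, 8 were higher and 4 lower in shIMPDH1, 4 higher and 3 lower in shIMPDH2, and 5 higher and 6 lower in the direct comparison, with median log2 fold changes of 0.05, 0.04 and -0.01. TOMM20, an import receptor, and PHB, a prohibitin, rose in shIMPDH1 (0.15 each, adjusted p = 1.46e-05 and 2.03e-05) and were not called in shIMPDH2. TOMM70A, another import receptor, rose in both (0.15, adjusted p = 2.39e-05, and 0.21, adjusted p = 1.63e-07). PHB2, the partner of PHB, was not called in shIMPDH1 and fell in shIMPDH2 (-0.23, adjusted p = 6.65e-08). CS, citrate synthase, rose in shIMPDH1 (0.09, adjusted p = 0.005) and fell in shIMPDH2 (-0.10, adjusted p = 0.002).

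Some member counts may have been limited by neighbours and copies, which was not tested. In GENCODE 29, 8 members shared 30% or more of their coding-transcript exon bases with another gene on the same strand, or 10.1% of members against 3.64% of 13473 coding genes tested. They were NDUFA7 (75.9%), ATP5O, NDUFB8, NDUFV2 (41.1%), COX8A (34.5%), NDUFA13 (32.9%), COX6A1 (30.6%) and ATP5J2 (30.4%). NDUFA7, NDUFV2 and NDUFA13 averaged 0.27, 1.48 and 1.65 CPM, and with NDUFB8 (6.42 CPM) and NDUFA4L2 (0.641 CPM) they were the 5 lowest members. Reads on shared bases may not have been assigned to either gene, and how such reads were counted was not given in the sources used here. Members with little or no sharing were low too. NDUFA4L2 and ATP5S, with 0% shared, were at 0.543 and 1.29 CPM per kb, and NDUFA9, with 11.4%, at 1.70. NDUFA13 rose in shIMPDH1 (0.44, SE 0.16, adjusted p = 0.0289) from 55 to 86 counts in shControl to 84 to 96 in shIMPDH1.

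**Figure D5:**
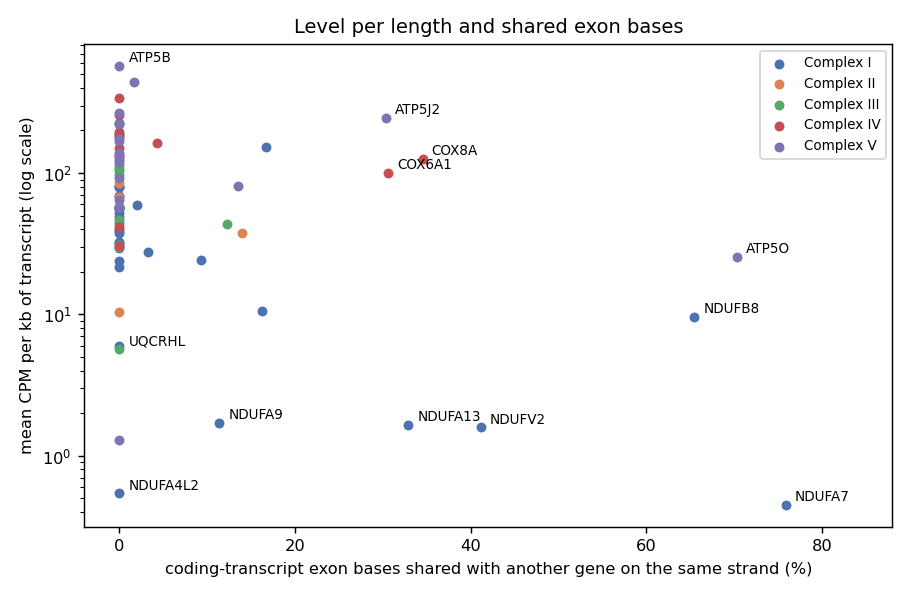
Mean CPM per kb of transcript (log scale) of each member against the share of its coding-transcript exon bases that lie under another gene on the same strand. NDUFA7, NDUFV2 and NDUFA13, with 75.9%, 41.1% and 32.9% shared, lie below 2 CPM per kb, whereas ATP5J2, COX8A and COX6A1, with 30.4% to 34.5%, lie at 245, 126 and 101. NDUFA4L2, ATP5S and NDUFA9, with 0%, 0% and 11.4% shared, also lie below 2 CPM per kb.

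Processed pseudogene rows existed for 35 members (126 rows). Their counts were under 2% of the member and its copies together in all but NDUFV2, a core complex I subunit, whose pseudogene NDUFV2P1 held 76.1% (2115 counts against 663). NDUFV2 was not called in any comparison. With the NDUFV2P1 counts added, its log2 fold change in shIMPDH2 went from 0.34 (adjusted p = 0.136) to 0.22 (adjusted p = 0.0373), and the direct difference was 0.22 (adjusted p = 0.0379). Reads of NDUFV2 and NDUFV2P1 cannot be told apart from these counts. On the opposite strand, 16 members overlapped another gene over more than 10% of their exon bases, and whether the counting used strand was not given in the sources used here.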

How the data were processed

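The authors deposited a table of raw counts per gene symbol, 1 column for each of the 9 libraries, whole numbers that had not been normalised. Per the labels' protocols, polyadenylated RNA was made into stranded libraries. Per the submitters' processing notes, Trim Galore, cutadapt, STAR, featureCounts and hg38 were used; versions, the annotation release, the strand setting and the handling of reads with several positions were not given in the sources used here. In R 4.3.3, counts were analysed with edgeR 4.0.16 (limma 3.58.1): filterByExpr by group left 17396 of 58684 genes, TMM scaling, and a quasi-likelihood fit with group as its only term over all 9 libraries, each comparison a contrast. Adjusted p-values are Benjamini-Hochberg over all genes tested. The SE was taken as the log2 fold change over the root of its F statistic. DESeq2 1.42.0, other scalings, filters, a replicate block, added pseudogene counts and leaving out each library were alternatives.

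The members and all lists were chosen with earlier results of these data known. Detailed values are given for catalytic-core subunits, isoform families, and in each comparison and complex up to 2 rising and 2 falling members of largest change whose mean log2 CPM was 2 or more. Members named outside this rule complete a count or were chosen after their values were seen. Of each of 9 other lists, up to 2 called genes of smallest p were eligible, and a gene eligible in any comparison may be given in the others. Lengths, coordinates and overlaps are from GENCODE 29, to which all 79 members were matched, 63 by symbol and 16 by synonym. Per-kb levels divide by the principal transcript's length, so genes with a long annotated transcript rank low. Library totals were 44560837 to 58370328 counts; limits for a count of 0 cover counting error only. Values of 1 member that enter the counts are not reported here by name.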

Additional observations from a re-analysis of the deposited data

How the results depend on the processing

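Over 18 alternatives, no log2 fold change of the 47 members followed individually turned sign after being called, in any of the 3 comparisons. Of their calls, 14 of 22 in shIMPDH1 against shControl, 10 of 25 in shIMPDH2 against shControl and 23 of 28 in the direct comparison held under every alternative. The count of members lower in shIMPDH1 (8) was 5 with upper-quartile scaling and ranged from 3 to 8 when a library was left out. In shIMPDH2 the count called (31) ranged from 19 to 30 and the count lower (23) from 10 to 24 on leaving out a library, in each case least without shControl replicate 2. The count higher in shIMPDH2 (8) was 15 with library totals alone. That scaling moved the log2 fold changes of all genes in shIMPDH2 by a median of 0.0196. The median member there went from -0.0340 to -0.0145. The cause of the movements on leaving out a library was not tested. Over all genes tested, deviations of same-numbered libraries from their group means correlated at -0.0861 to 0.0888 over 9 pairs. No pairing by replicate number was seen. This check cannot exclude a shared culture or day, because counting error in low-count genes enters it. A replicate block gave 34 members called in place of 33, 33 in place of 31 and 43 in place of 41. No scaling moved the median of all genes by more than 0.03, but the median member itself changed by only 0.05, -0.03 and -0.07. With 3 libraries a group and a low spread, calls near the threshold hang on single libraries, and members under 2 CPM are limited by counts.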
